A study of Mus musculus with 23 samples.

Results

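ZDON and Boc-DON, a pair of transglutaminase inhibitors, were compared with control in 2 mouse striatal cell lines, and the genes that both compounds moved the same way in both lines were sought. The comparison used 17 of the 23 bead arrays of the series: 11 arrays of cells given ZDON or Boc-DON and 6 arrays of control cells. The Q111 line comes from a transgenic model of Huntington disease, and the Q7 line is its control, labelled wild type. Q111 had 3 arrays with ZDON, 3 with Boc-DON and 3 with control, and Q7 had 3 with ZDON, 2 with Boc-DON and 3 with control. Both compounds were given at 50 µM for 12 h. The labels give neither a vehicle nor a time for the controls, so an effect of solvent or handling cannot be told apart from that of the compounds. Each genotype was 1 line, so genotype and line cannot be told apart either. Replicate numbers 1, 2 and 3 mark the BeadChip that carried an array, and Q7 had no Boc-DON array on chip 3. The labels do not say that replicates were separate cultures, so every p-value below measures only the spread between these arrays, and their small number limits the precision.

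Transglutaminase 2, the enzyme named in the study's design text, joins glutamine side chains of proteins to lysines or to small amines, and it has been studied in Huntington disease because the stretch of glutamines in huntingtin is a possible substrate. DON stands for diazo-oxo-norleucine, a glutamine analogue with a reactive diazoketone that binds covalently to enzymes that act on glutamine. ZDON carries a benzyloxycarbonyl (Z) cap and Boc-DON a tert-butoxycarbonyl (Boc) cap, as their names state; the labels describe no other part of either molecule. In the label check, 2 of the 4 neuron markers on the array were below the array median (Snap25 at percentile 34.0 and Syt1 at 14.4). Tubb3 (59.2) and Map2 (65.3) were above that median. Of the striatal projection neuron markers, Bcl11b (21.3), Drd1 (32.5) and Drd2 (40.5) were below it and Ppp1r1b (56.9) above. Of 5 astrocyte markers, Gfap, Aqp4 and S100b were below the median and Slc1a3 (79.1) and Aldh1l1 (53.6) above it, and all 4 oligodendrocyte markers on the array were below. Of 5 progenitor markers, Nes (85.1), Sox2 (72.0), Dlx1 (58.3) and Dlx2 (57.2) were above the median and Pax6 was below.

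Over both compounds and both lines, 257 of 9849 genes changed against control (2.61% of the genes tested; limma, adjusted p under 0.05). Of these, 90 were higher (0.914%) and 167 lower (1.7%). For 248 genes (2.52%) the 4 single differences, each compound in each line against that line's control, also had one sign, 87 of them higher (0.883%) and 161 lower (1.63%). The 2 compounds of a line share its control arrays, and one sign in all 4 with no test was met by 3045 genes (30.9%), so the sign alone says little. An unadjusted p under 0.05 in each of the 4 single differences was met by 65 genes (0.66%), and an adjusted p under 0.05 in each by 1 gene, Lce1f (0.0102%). The shared changes were small: their sizes ran from 0.21 to 1.21 on the log2 scale with a median of 0.34, and 28 genes changed by at least 0.5, of which 23 fell. In 142 of the 248 genes the compound array lay on the same side of the control array of its line and chip in all 11 pairs. Boc-DON gave the larger change in 171 of the shared genes and ZDON in 77. The 248 genes were chosen on these same arrays, pairs share control arrays, and no share over all genes is given, so these are descriptions only. The count depended on single arrays: the 248 shared genes became 103 without Q7 control 1, 108 without Q7 Boc-DON 2, 122 without Q111 control 1, 109 without Q111 control 2, 165 without Q111 Boc-DON 1 and 165 without Q111 ZDON 3. Without Q7 Boc-DON 1 the pooled count of 257 became 114. The split by direction depended on the scaling: with median scaling in place of quantile normalization, 14 shared genes were higher and 157 lower. The median raw intensity was 114.2 to 131.1 on the Boc-DON arrays, 113.3 to 165 on the ZDON arrays and 117.9 to 156.9 on the control arrays; its part in the counts was not tested beyond that change of scaling.

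**Figure D1:**
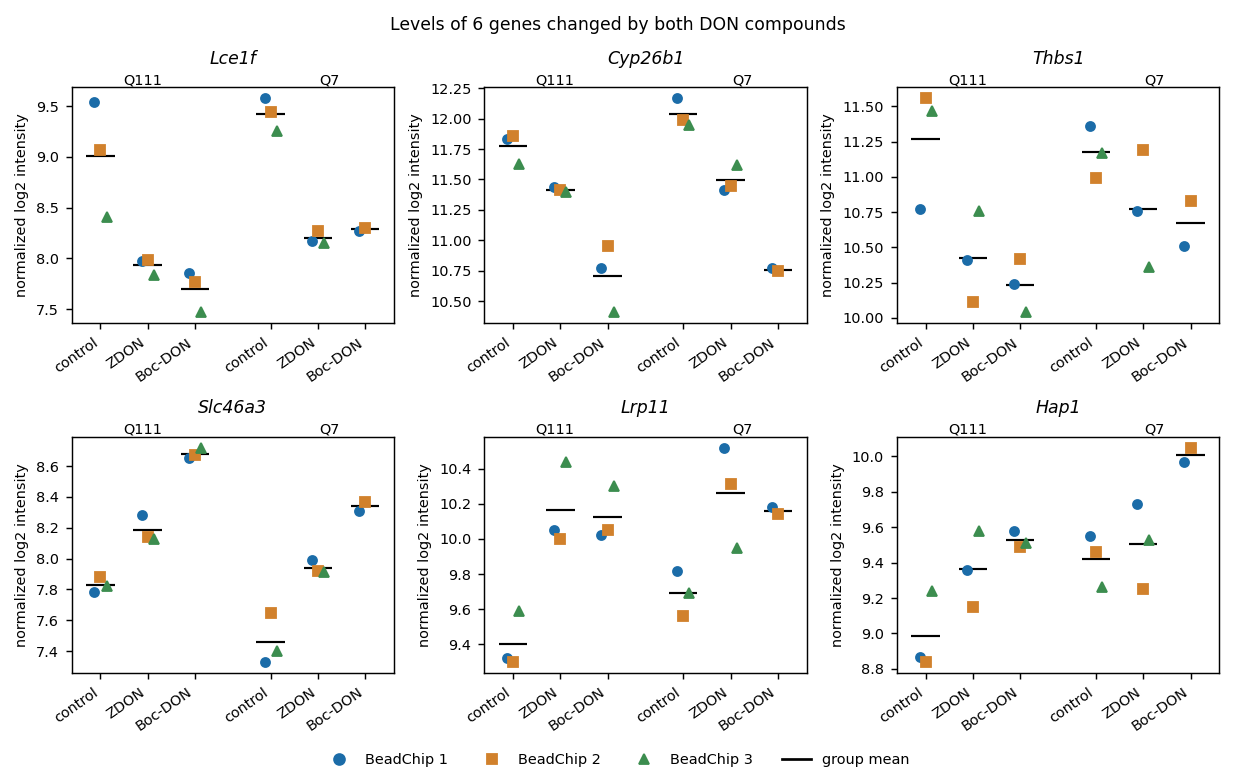
Normalized log2 intensity on each of the 17 arrays for 6 genes that moved the same way with both compounds in both lines. Each point is 1 array, marked by chip, grouped by line and by control, ZDON and Boc-DON, and a short bar gives the group mean; the Lce1f, Cyp26b1, Slc46a3 and Lrp11 points of the treated groups lie apart from the controls of their line, whereas those of Thbs1 and Hap1 overlap in part.

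Lce1f, which encodes a late cornified envelope protein, a kind of protein known from the outer layer of the skin where transglutaminases crosslink such proteins, fell most. Its log2 levels in Q111, for chips 1, 2 and 3, were 9.54, 9.07 and 8.41 with control, 7.97, 7.98 and 7.84 with ZDON, and 7.86, 7.77 and 7.47 with Boc-DON. In Q7 they were 9.58, 9.44 and 9.25 with control, 8.17, 8.27 and 8.15 with ZDON, and 8.27 and 8.30 with Boc-DON on chips 1 and 2. Every treated array lay below every control array of its line. The pooled difference was -1.21 (SE 0.09, 95% interval -1.41 to -1.01, limma adjusted p = 7.20e-06), which is 43.1% of the control level. By chip the fall was -1.49, -1.18 and -0.93. ZDON and Boc-DON were not told apart: ZDON minus Boc-DON was 0.13 with an interval of -0.12 to 0.37 (limma adjusted p = 0.72).

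Cyp26b1, a retinoic acid hydroxylase that clears retinoic acid, fell with both compounds and more with Boc-DON. Its levels in Q111 were 11.83, 11.86 and 11.63 with control, 11.44, 11.41 and 11.40 with ZDON, and 10.77, 10.95 and 10.41 with Boc-DON. In Q7 they were 12.17, 11.99 and 11.95 with control, 11.41, 11.45 and 11.62 with ZDON, and 10.77 and 10.75 with Boc-DON. The 3 treatments formed 3 separate layers in both lines, control on top and Boc-DON at the bottom. The pooled difference was -0.82 (SE 0.07, limma adjusted p = 3.15e-05). ZDON alone gave -0.45 (limma adjusted p = 0.0146) and Boc-DON -1.19 (limma adjusted p = 4.47e-06), and the compounds differed by 0.74 (SE 0.09, limma adjusted p = 0.000748). Cyp26b1 was the only one of the 7 measured retinoid genes that passed the test, although all 7 lay below 0, with a median of -0.05 against 0.01 for all genes.

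Thbs1, the matrix glycoprotein thrombospondin 1, read 10.77, 11.56 and 11.47 in Q111 controls, 10.41, 10.11 and 10.76 with ZDON, and 10.24, 10.42 and 10.04 with Boc-DON. Its Q7 levels were 11.36, 10.99 and 11.17 with control, 10.76, 11.19 and 10.36 with ZDON, and 10.51 and 10.83 with Boc-DON. The groups were apart in Q111, while 1 ZDON array of Q7 reached into the control range. The pooled difference was -0.70 (SE 0.14, limma adjusted p = 0.0138), a second probe gave -0.63, and the call was lost without Q7 control 1, without Q111 control 2 and without chip 3, with adjusted p up to 0.0653. Mmp10, the protease stromelysin 2, fell from 9.04, 9.0 and 9.03 to 8.58, 8.55 and 8.62 with ZDON and 8.48, 8.44 and 8.19 with Boc-DON in Q111. In Q7 it went from 9.95, 9.84 and 9.81 to 9.78, 9.75 and 9.41 with ZDON and 9.25 and 9.18 with Boc-DON. No treated Mmp10 level reached a control level of its line, and the pooled difference was -0.50 (SE 0.06, limma adjusted p = 0.00101).

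Of the 31 measured collagen and matrix genes, 0 rose and 3 fell past the threshold, Thbs1, Mmp10 and Tnc (tenascin C, -0.28, limma adjusted p = 0.034). Over all genes 0.914% rose and 1.7% fell past the threshold. The list's median was -0.15 beside 0.01 over all genes, and 28 of the 31 lay below 0, a count without a share over all genes beside it. The Tnc call was lost in 16 of 25 other settings, 12 of them without a single array, with adjusted p up to 0.343, and its other probes gave -0.38 to 0.39. Markers of fibroblast and mesenchymal cells went the same way without a call: all 6 measured ones lay below 0, from -0.44 to -0.03 with a median of -0.29, and Lum and Thy1 were too dim to be measured. Some of these markers, Col1a2 and Dcn among them, are also in the collagen and matrix list, so this is not a separate observation. The part of fibroblast and mesenchymal cells in the matrix result was not tested, and fewer cells of a type and less RNA per cell cannot be told apart in bulk RNA. Among 17 TGF-beta and BMP targets, 0 rose and 1 fell, Grem1, a secreted BMP antagonist, at -0.52, a call lost without the chip block (adjusted p = 0.391). By compound, Grem1 was at -0.21 with ZDON (limma adjusted p = 0.385) and -0.83 with Boc-DON (limma adjusted p = 0.000881).

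Other large falls were those of Ly6c1, a GPI-anchored surface antigen, at -0.66 (SE 0.10, limma adjusted p = 0.00296), Ccn5, a matricellular protein, at -0.62 (SE 0.11, limma adjusted p = 0.006), and Cdh26, a cadherin, at -0.61 (SE 0.08, limma adjusted p = 0.00113; its other probe gave -0.28). All 3 were lower in the means of both compounds in both lines. For Ccn5 with ZDON in Q7 this rested on chip 3. It read 9.23, 9.22 and 8.26 there, beside 9.03, 9.25 and 8.89 with control. S100a7a, a calcium-binding protein of the S100 family, Tnnt2, cardiac troponin T, and Prelp, a matrix proteoglycan, fell by 0.59, 0.58 and 0.56. S100a7a read 10.69, 10.63 and 10.01 in Q111 controls, 10.16, 10.21 and 9.11 with ZDON and 10.02, 9.83 and 9.32 with Boc-DON, so the groups overlapped across chips while each treated array was below the control of its own chip and line. Without the chip as a block those 3 calls were lost, with adjusted p = 0.161, 0.113 and 0.285 in limma. Spon2, a secreted matrix protein, fell by 0.58 and Ranbp3l, an export factor of the Ran family, by 0.57, but their calls were lost in 6 and 11 of 25 other settings, with adjusted p up to 0.46 and 0.361. For Spon2 these were the fit without the chip block and those without Q7 Boc-DON 1, Q7 Boc-DON 2, Q111 control 1, Q111 control 2 or Q7 control 2. For Ranbp3l they were the fit without the block and those without 10 single arrays, from all groups but Q7 ZDON. For Ranbp3l 4 of the 11 chip-matched pairs pointed up and its other probe gave 0.16.

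Slc46a3, a lysosomal membrane transporter, rose most. Its Q111 levels were 7.78, 7.88 and 7.82 with control, 8.28, 8.14 and 8.13 with ZDON, and 8.65, 8.67 and 8.72 with Boc-DON. The Q7 arrays read 7.33, 7.65 and 7.40 with control, 7.99, 7.92 and 7.91 with ZDON, and 8.31 and 8.37 with Boc-DON. Again the 3 treatments formed separate layers in both lines, here with Boc-DON on top. The pooled difference was 0.64 (SE 0.06, 95% interval 0.51 to 0.77, limma adjusted p = 4.51e-05), or 1.56-fold. ZDON minus Boc-DON was -0.44 (SE 0.07, limma adjusted p = 0.00932), a call that was lost without Q7 Boc-DON 1, without Q7 Boc-DON 2, without chip 3 and with median scaling, with adjusted p up to 0.103. Slc46a3 was the only one of 23 lysosome and autophagy genes that rose and 0 fell, at a list median of 0.13 beside 0.01 over all genes.

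Lrp11, a membrane protein related to the LDL receptor, rose by the same amount with either compound. It read 9.32, 9.30 and 9.59 in Q111 controls, 10.05, 10 and 10.44 with ZDON, and 10.02, 10.05 and 10.30 with Boc-DON. Its Q7 levels were 9.82, 9.56 and 9.69 with control, 10.52, 10.31 and 9.95 with ZDON, and 10.18 and 10.14 with Boc-DON. All treated arrays were above the controls of their line. The pooled difference was 0.64 (SE 0.09, limma adjusted p = 0.0016), and ZDON minus Boc-DON was 0.05 with an interval of -0.18 to 0.29. Mib2, a ubiquitin ligase of Notch signalling, also rose in all groups without overlap, at 0.46 (SE 0.06, limma adjusted p = 0.00103) and a compound difference of 0.09 (interval -0.07 to 0.24).

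2 genes of protein folding in the endoplasmic reticulum rose. Fkbp14, a prolyl isomerase of that compartment, went from 9.60, 9.45 and 9.56 in Q111 controls to 10.19, 10.06 and 10.28 with ZDON and 10.07, 9.89 and 10.23 with Boc-DON. In Q7 it went from 9.73, 9.47 and 9.51 to 10.37, 10.18 and 9.86 with ZDON and 9.97 and 9.80 with Boc-DON. No treated level overlapped the controls, and the pooled difference was 0.51 (SE 0.07, limma adjusted p = 0.00167). Ero1b, an oxidase that helps to form disulfide bonds there, rose by 0.49 (SE 0.09, limma adjusted p = 0.00728), with overlap of ZDON and control in Q7. Among 17 measured heat shock and chaperone genes 0 rose and 0 fell, with a median of 0.04.

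Gch1, the first enzyme of tetrahydrobiopterin synthesis, rose by 0.63 (SE 0.12, limma adjusted p = 0.0115), but its second probe gave 0.10 and the call was lost without the chip block at an adjusted p of 0.0566. Rassf4, a Ras-association family member, rose by 0.52 (SE 0.10, limma adjusted p = 0.00918), with 0.16 and 0.31 at its other probes. Fam214a, whose role is not well known, rose by 0.44 (SE 0.07, limma adjusted p = 0.0041). Idnk, a gluconokinase, rose by 0.39 (limma adjusted p = 0.021) and lost its call with median scaling, without chip 3 and without Q7 control 1, Q7 Boc-DON 1, Q7 Boc-DON 2, Q111 control 2 or Q111 control 3, with adjusted p up to 0.0981. Hap1, a partner of huntingtin in vesicle transport, was the only one of 15 measured huntingtin partners to pass, at 0.40 (SE 0.08, limma adjusted p = 0.0168). Its levels in Q111 were 8.87, 8.84 and 9.24 with control, 9.36, 9.15 and 9.58 with ZDON, and 9.58, 9.49 and 9.51 with Boc-DON. In Q7 they were 9.55, 9.46 and 9.26 with control, 9.73, 9.25 and 9.53 with ZDON, and 9.97 and 10.05 with Boc-DON. Boc-DON and control were apart in both lines and ZDON overlapped the controls in both. The other Hap1 probes, both dim, gave 0.07 and 0.11, and the call was lost without Q111 control 1, without Q111 control 2, without Q7 Boc-DON 2 and with median scaling, with adjusted p up to 0.0678.

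Oxidative stress genes rose in part. Hmox1 encodes haem oxygenase, a target of the transcription factor NRF2, and it rose by 0.45 in the pooled comparison (SE 0.07, limma adjusted p = 0.00312). Its Q111 levels were 12.43, 12.19 and 11.82 with control, 13.16, 13.25 and 12.29 with ZDON, and 12.51, 12.45 and 11.97 with Boc-DON. The Q7 arrays read 12.19, 12.38 and 11.80 with control, 13.04, 13.18 and 12.64 with ZDON, and 12.35 and 12.39 with Boc-DON. On every chip ZDON stood far above control and Boc-DON close to it. ZDON gave 0.80 (limma adjusted p = 0.000158) and Boc-DON 0.11 (limma adjusted p = 0.596), and the difference of the compounds was 0.69 (limma adjusted p = 0.000894). Both the pooled call and the compound difference were lost without the chip block, at adjusted p = 0.127 and 0.287. Srxn1, sulfiredoxin, rose by 0.45 (SE 0.09, limma adjusted p = 0.01) with 0.34 and 0.41 at its other probes, and Gclm, a subunit of the enzyme that starts glutathione synthesis, by 0.36 (limma adjusted p = 0.0194). The Gclm call was lost with median scaling, without chip 3 and without Q7 control 1, Q7 control 2 or Q7 Boc-DON 1, with adjusted p up to 0.0734. These 3 were the only ones of 27 measured NRF2 targets that changed, at a list median of 0.08.

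Among 18 measured p53 targets, 2 rose and 1 fell, beside 0.914% and 1.7% of all genes. Cdkn1a, the cell cycle inhibitor p21, rose by 0.48 (limma adjusted p = 0.00124) and lost its call without the chip block (adjusted p = 0.142). Its 4 single differences did not have one sign, so it was not a shared gene. By compound it was at 0.68 with ZDON and 0.27 with Boc-DON. Gadd45a, a DNA damage and stress gene, rose by 0.39 (limma adjusted p = 0.00458) in 11 of 11 chip-matched pairs, and Plk2, a stress-induced kinase, fell by 0.36 (limma adjusted p = 0.00873) in 11 of 11. Of 15 apoptosis regulators 2 rose and 0 fell: Diablo, which releases caspases from their inhibitors, at 0.35 and Apaf1, the apoptosome scaffold, at 0.31. The Diablo call was lost with median scaling (adjusted p = 0.0786). The Apaf1 call was lost in 18 of 25 other settings, 13 of them without a single array, with adjusted p up to 0.175.

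Of 26 immediate early, AP-1 and phosphatase genes 1 rose and 3 fell. Klf2, a Krueppel-like transcription factor, rose by 0.38 (limma adjusted p = 0.0135). Dusp4 and Dusp6, phosphatases that switch off MAP kinases, fell by 0.38 and 0.33, and Etv5, an ETS factor, by 0.36. By compound, Dusp4 was at -0.06 with ZDON (limma adjusted p = 0.793) and -0.70 with Boc-DON (limma adjusted p = 0.000124), and Dusp6 at -0.16 (limma adjusted p = 0.478) and -0.51 (limma adjusted p = 0.0113). Other Dusp4 and Dusp6 probes gave 0 and -0.05. The Klf2 call was lost with median scaling and without Q111 control 2 (adjusted p up to 0.0714), that of Dusp4 without the chip block (0.0991), and that of Etv5 without the block, without chip 3 and without Q7 control 1, Q7 Boc-DON 1, Q7 Boc-DON 2 or Q111 control 2 (up to 0.171). Dusp6 lost its call in 14 of 25 other settings, with adjusted p up to 0.228. None of the measured members of the lists for oxidative phosphorylation (22), glycolysis and hypoxia (21), cholesterol synthesis (17), the PGC-1alpha axis (12), DNA replication (20), mitosis (14), the proteasome (27), metallothioneins (11), the interferon response (14) or tRNA synthetases (15) passed the limma test in the pooled comparison. These lists are short, and genes of such kinds outside them were among the shared ones. Named after their values were seen, these were the mitochondrial tRNA synthetases Nars2 (-0.31, limma adjusted p = 0.021) and Ears2 (-0.27, limma adjusted p = 0.0466), the enolase Eno3 (-0.45, limma adjusted p = 0.0462), the glucose transporter Slc2a3 (-0.25, limma adjusted p = 0.042) and the mitotic gene Dlgap5 (0.28, limma adjusted p = 0.0465). Across all genes 1585 had an unadjusted p under 0.05. Of the 9 measured enzymes that use glutamine only Carns1 passed, at -0.29, and that gene is known as a carnosine synthase; its call was lost without the chip block and without Q7 control 1, Q111 control 2 or Q7 Boc-DON 2 (adjusted p up to 0.104).

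Tgm2, the intended target, did not pass the test over all 17 arrays. Its levels in Q111 were 7.78, 7.73 and 8.68 with control, 7.48, 7.53 and 8.33 with ZDON, and 7.30, 7.46 and 8.24 with Boc-DON. In Q7 they were 8.32, 8.35 and 7.67 with control, 8.20, 7.97 and 7.80 with ZDON, and 7.95 and 7.81 with Boc-DON. Groups overlapped everywhere because chip 3 lay high in Q111 and low in Q7. The pooled difference was -0.23 (interval -0.59 to 0.12, limma adjusted p = 0.542), below control in 10 of 11 pairs. Without chip 3 it was -0.34 and passed (limma adjusted p = 0.0315), and without single arrays it ran from -0.12 without Q7 control 2 to -0.42 without Q7 control 3, never past the threshold. ZDON minus Boc-DON was 0.06 (interval -0.37 to 0.49), from -0.04 without Q7 ZDON 1 to 0.19 without Q111 Boc-DON 3. The arrays measure its RNA and say nothing of the enzyme's activity. Htt, huntingtin, was at 0.19 (interval 0.07 to 0.31, limma adjusted p = 0.082), above control in 11 of 11 pairs and not past the threshold; with all 23 arrays in the fit it passed (adjusted p = 0.0419).

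Each line was also fitted alone, so that no array was shared. In Q111 alone 15 genes were higher and 45 lower. Of the 15, 14 were also higher in Q7 (93.3%, beside 52.6% of all genes), and 7 had an unadjusted limma p under 0.05 there (46.7%, beside 2.86%). Of the 45, 44 were also lower in Q7 (97.8%, beside 47.4%), and 28 had an unadjusted p under 0.05 (62.2%, beside 4.13%). The median size was smaller in the line that did not choose the genes: 0.58 became 0.27 for the higher genes and -0.54 became -0.32 for the lower ones. The exceptions were Hspa4l, a chaperone, at 0.63 in Q111 and -0.16 in Q7, and Toporsl at -0.43 and 0.08. Q7 alone called 0 higher and 3 lower genes, Lce1f, Cyp26b1 and Prl2c2, and all 3 were lower in Q111 with an unadjusted p under 0.05. Prl2c2 was at -0.25 in Q111 alone (limma adjusted p = 0.268). It was not a shared gene, as its 4 single differences did not have one sign.

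**Figure D2:**
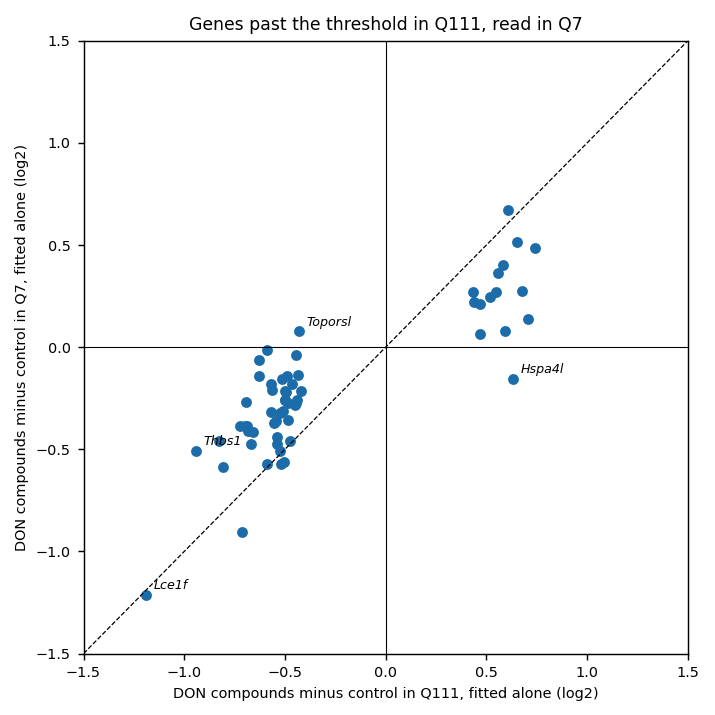
Log2 difference of the 2 DON compounds against control in Q7 (vertical axis) against that in Q111 (horizontal axis), each line fitted alone, for the 60 genes past the threshold in Q111. Solid lines mark 0 and the dashed line an equal change; nearly all points have the same sign in both lines, Lce1f at -1.19 and -1.21, and Hspa4l and Toporsl do not.

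In the joint fit, the 2 compounds together changed 58 genes in Q111 (0.589%) and 10 in Q7 (0.102%), 13 higher (0.132%) and 45 lower (0.457%) in Q111 and 1 higher (0.0102%) and 9 lower (0.0914%) in Q7. The difference between the lines in their response was past the threshold for 0 genes (limma; 520 had an unadjusted p under 0.05, and the smallest adjusted p was 0.81), so the unequal counts are not shown to reflect unequal responses. The Q111 count ran from 6 without Q111 control 3 to 113 without Q7 control 3, and the Q7 count from 3 without Q7 control 1 to 17 without Q7 ZDON 3.

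ZDON and Boc-DON were the 1 pair of compounds at a matched dose and time, so the adjustment over pairs changes nothing and that over genes is the one given. Against control, ZDON changed 162 genes over both lines (1.64%), 77 higher (0.782%) and 85 lower (0.863%), and Boc-DON 270 (2.74%), 89 higher (0.904%) and 181 lower (1.84%). Within a line, ZDON changed 18 genes in Q111 (0.183%), 7 higher (0.0711%) and 11 lower (0.112%), and 4 in Q7 (0.0406%), 1 higher (0.0102%) and 3 lower (0.0305%). Boc-DON changed 65 in Q111 (0.66%), 14 higher (0.142%) and 51 lower (0.518%), and 16 in Q7 (0.162%), 1 higher (0.0102%) and 15 lower (0.152%). Set against each other directly, with no control array in the difference, they differed in 69 genes (0.701%), with ZDON above Boc-DON in 49 (0.498%) and below in 20 (0.203%). All 69 had the same sign in both lines. In 47 of them the compounds lay on opposite sides of control. The 69 genes were chosen on this difference over the same arrays, which favours one sign in both lines and opposite sides of control. No share over all genes is given, so both counts are descriptions only. Of the 49 genes higher with ZDON, 27 were past the threshold for Boc-DON against control and 14 for ZDON. Among the 248 shared genes 12 differed between the compounds, 10 with the larger change under Boc-DON. The 69 became 12 without Q7 Boc-DON 1, 19 without Q7 Boc-DON 2, 27 and 28 without Q111 ZDON 1 and 2, 31 without Q7 ZDON 2, 40, 37 and 44 without Q111 Boc-DON 1, 2 and 3, and 108 without Q7 control 3. Median scaling gave 104 higher and 3 lower genes in place of 49 and 20. Within one line, adjusted over the genes of both lines together, 7 genes differed in Q111 (0.0711%, all higher with ZDON) and 15 in Q7 (0.152%, 14 higher); leaving out either Q7 Boc-DON array took both counts to 0.

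**Figure D3:**
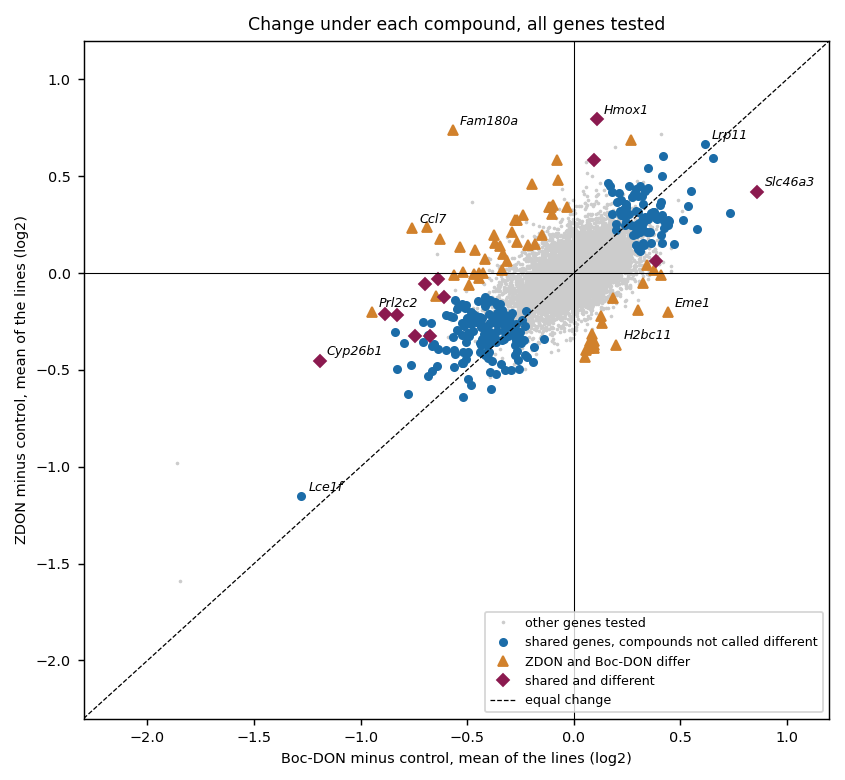
Log2 difference against control for ZDON (vertical axis) and Boc-DON (horizontal axis), means of both lines, for all genes tested (grey), with blue circles for shared genes, orange triangles for genes that differed between the compounds and purple diamonds for the 12 that were both. The compounds share their control arrays, so the slope of the cloud is not a result; marked genes far from the diagonal, such as Ccl7 at 0.23 with ZDON and -0.76 with Boc-DON, are those in which the compounds differed.

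3 chemokine genes differed between the compounds. Ccl7, Ccl2 and Cxcl1 encode secreted attractants of monocytes or, for Cxcl1, neutrophils, and are known targets of NF-kappaB. Ccl7 read 10.38, 10.37 and 10.37 in Q111 controls, 10.57, 10.44 and 10.35 with ZDON, and 9.73, 9.70 and 9.56 with Boc-DON. Its Q7 levels were 11.10, 11.08 and 10.56 with control, 11.61, 11.58 and 10.70 with ZDON, and 10.31 and 10.13 with Boc-DON. Boc-DON lay below every control array in both lines, and ZDON overlapped control in both. ZDON minus Boc-DON was 0.99 (SE 0.11, limma adjusted p = 0.000748), from -0.76 with Boc-DON (limma adjusted p = 0.00197) and 0.23 with ZDON (limma adjusted p = 0.34). Ccl2 read 7.66, 7.93 and 8.04 in Q111 controls, 7.84, 8.03 and 8.30 with ZDON, and 7.34, 7.48 and 7.65 with Boc-DON. The Q7 arrays read 8.86, 8.91 and 8.96 with control, 9.32, 9.18 and 8.74 with ZDON, and 7.89 and 8.14 with Boc-DON. The pattern was that of Ccl7, with a difference of 0.80 (SE 0.11, limma adjusted p = 0.00271). Cxcl1 read 10.50, 10.50 and 10.10 in Q111 controls, 10.28, 10.13 and 9.99 with ZDON, and 9.74, 9.74 and 9.28 with Boc-DON. Its Q7 levels were 10.78, 10.84 and 10.89 with control, 10.88, 10.54 and 10.52 with ZDON, and 10.08 and 9.77 with Boc-DON. It was a shared gene at -0.55 (SE 0.08, limma adjusted p = 0.00124), yet ZDON alone gave -0.21 (limma adjusted p = 0.279) and Boc-DON -0.89 (limma adjusted p = 7.88e-05), a difference of 0.68 (SE 0.09, limma adjusted p = 0.00159).

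Of 23 measured genes of the NF-kappaB and chemokine list, 3 were higher with ZDON than with Boc-DON and 0 lower, at a median of 0.10 beside -0.01 over all genes. Against control 0 rose and 2 fell, Cxcl1 and Vcam1, an adhesion molecule, at -0.27; the Vcam1 call was lost in 16 of 25 other settings, with adjusted p up to 0.119. Outside the list, and named after their values were seen, the chemokines Ccl9 (-0.53, limma adjusted p = 0.00531) and Cx3cl1 (-0.36, limma adjusted p = 0.0141) and the NF-kappaB pathway genes Traf1 (-0.51, limma adjusted p = 0.00101) and Map3k14 (-0.31, limma adjusted p = 0.0319) were also lower with both compounds in both lines. The Cxcl1 promoter is shown because it holds a kappaB motif in the window. It is the 150 bases before the RefSeq start in GRCm38.p6, written along the gene, with the match to the kappaB motif searched (GGGA, any base, TTTCC) in capitals. Either strand was searched, and such a match is found in 57 of 27025 promoter windows of the same length (0.211%). The promoter was picked for its match, so this rarity says nothing of the chemokine difference. Ccl2 and Ccl7 had no promoter entry and were not searched. The match describes the sequence and no binding.
Cxcl1, chr5:90891095-90891244, plus strand: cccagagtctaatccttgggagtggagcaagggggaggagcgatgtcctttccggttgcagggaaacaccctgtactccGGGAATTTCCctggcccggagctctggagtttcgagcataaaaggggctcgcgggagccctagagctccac

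**Figure D4:**
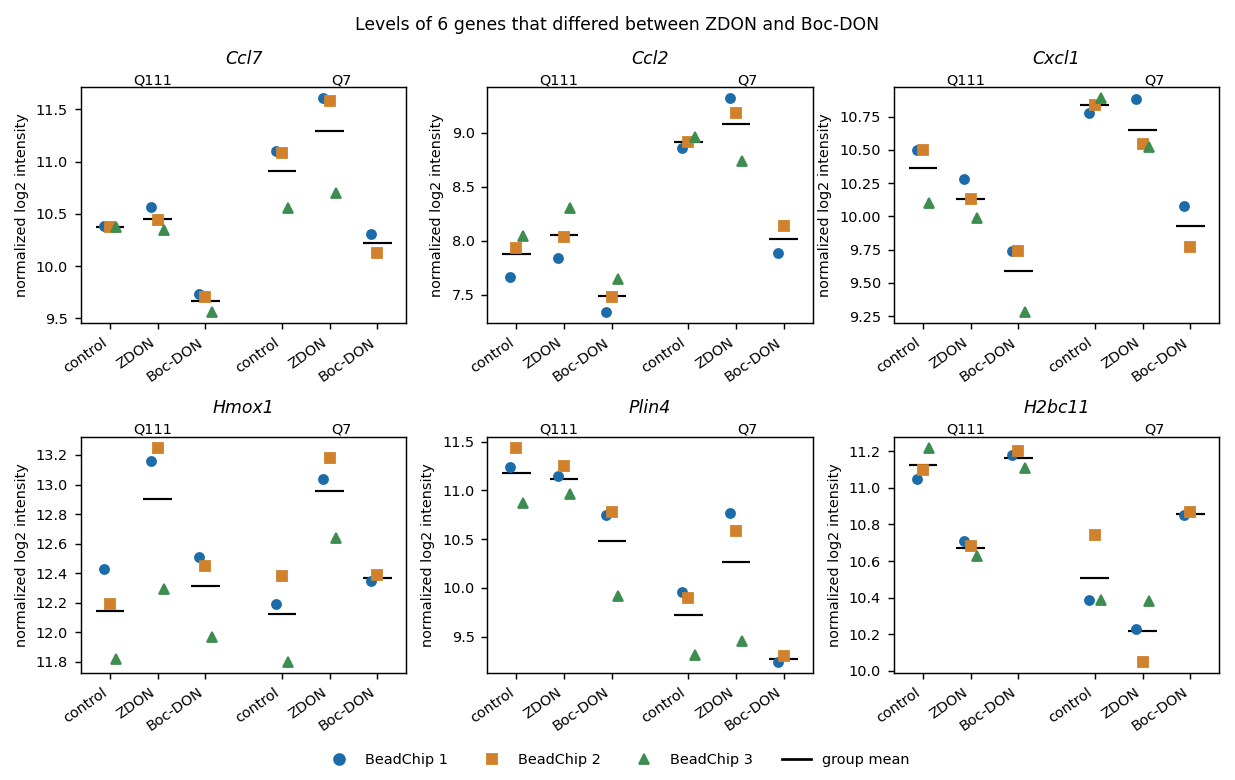
Normalized log2 intensity on each of the 17 arrays for 6 genes that differed between ZDON and Boc-DON, grouped by line and treatment, with points for arrays marked by chip and a short bar for the group mean. Ccl7, Ccl2, Cxcl1 and Plin4 are low with Boc-DON, Hmox1 is high with ZDON, and H2bc11 is low with ZDON.

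Genes of lipid storage were also among those lower with Boc-DON. Plin4, a lipid droplet coat protein, read 11.24, 11.44 and 10.87 in Q111 controls, 11.15, 11.25 and 10.96 with ZDON, and 10.75, 10.78 and 9.92 with Boc-DON. In Q7 it read 9.96, 9.90 and 9.31 with control, 10.77, 10.58 and 9.45 with ZDON, and 9.24 and 9.30 with Boc-DON. Boc-DON was below all controls in both lines, and the compounds differed by 0.93 (limma adjusted p = 0.000894); the call was lost without the chip block (adjusted p = 0.23). Plin2, another droplet coat protein, differed by 0.49 (limma adjusted p = 0.00887) and Angptl4, a secreted inhibitor of lipoprotein lipase, by 0.67 (limma adjusted p = 0.00354), both lower with Boc-DON than control. The Plin2 call was lost without Q7 Boc-DON 1, at an adjusted p of 0.11. These were the 3 of 20 lipid storage and fatty acid genes that differed, none of them lower with ZDON than with Boc-DON. Against control, Plin2 was a shared gene, at -0.12 with ZDON and -0.61 with Boc-DON. Of 17 cholesterol synthesis genes Lss and Cyp51, enzymes of lanosterol formation and demethylation, were higher with ZDON by 0.56 and 0.54, at a list median of 0.21, and lost their calls in 7 and 9 of 25 other settings, with adjusted p up to 0.405 and 0.374. Both did so without the chip block and without Q7 Boc-DON 1, Q7 Boc-DON 2, Q111 Boc-DON 1, Q111 Boc-DON 2, Q7 ZDON 2 or Q111 ZDON 2, and Cyp51 also without Q7 ZDON 1 or Q111 ZDON 1.

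Fam180a, a gene of little known function, had the largest compound difference, 1.31 (SE 0.16, limma adjusted p = 0.000748). It read 8.75, 8.64 and 7.63 in Q111 controls, 9.21, 9.14 and 8.51 with ZDON, and 8.44, 8.23 and 7.47 with Boc-DON. In Q7 it read 8.64, 8.75 and 7.72 with control, 9.96, 9.90 and 7.84 with ZDON, and 7.75 and 8.05 with Boc-DON. On each chip ZDON was above control and, where present, Boc-DON below it, but chip 3 lay so low that both compounds overlapped control in both lines, and ZDON overlapped Boc-DON in Q7. In Q111 every ZDON array was above every Boc-DON array. Without the chip block the call was lost (adjusted p = 0.311). Prl2c2, a proliferin of the prolactin family, differed by 0.75 (limma adjusted p = 0.000913): in Q111 it read 9.80, 9.51 and 9.23 with control, 9.97, 9.84 and 9.19 with ZDON, and 8.95, 8.85 and 8.74 with Boc-DON. In Q7 it read 11.35, 11.12 and 11.21 with control, 10.72, 10.76 and 10.54 with ZDON, and 10.22 and 9.98 with Boc-DON. ZDON overlapped control in Q111 and lay below it in Q7, whereas Boc-DON was below in both. Proliferin genes are near-identical copies, so signal from another copy cannot be told apart.

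Further genes from other lists were higher with ZDON than with Boc-DON. Dusp4 differed by 0.64 (limma adjusted p = 0.000748; its other probe gave 0.11) and Fosl1, an AP-1 subunit, by 0.55 (limma adjusted p = 0.013). Slc7a11, the cystine importer, differed by 0.66 (limma adjusted p = 0.0115), Cdkn1a by 0.42 (limma adjusted p = 0.0191), Bid, a BH3-only apoptosis gene, by 0.42 (limma adjusted p = 0.0115) and Tgif1, a repressor of TGF-beta signalling, by 0.50 (limma adjusted p = 0.0127). Fosl1, Slc7a11, Cdkn1a, Bid and Tgif1 lost their calls without Q7 Boc-DON 1 and without Q111 ZDON 1, and in up to 9 of 25 settings in all, at adjusted p up to 0.69.

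The 20 genes lower with ZDON than with Boc-DON included 9 histone H2B genes, 6 of them among the 8 largest differences. H2bc11 read 11.05, 11.10 and 11.22 in Q111 controls, 10.71, 10.68 and 10.63 with ZDON, and 11.18, 11.20 and 11.11 with Boc-DON. In Q7 it read 10.39, 10.74 and 10.39 with control, 10.23, 10.05 and 10.38 with ZDON, and 10.85 and 10.87 with Boc-DON. ZDON was below every control array in both lines, and Boc-DON overlapped control in Q111 and lay above it in Q7. The compounds differed by -0.57 (SE 0.09, limma adjusted p = 0.00408), from -0.37 with ZDON (limma adjusted p = 0.0291) and 0.20 with Boc-DON (limma adjusted p = 0.263). H2bc22 read 12.22, 12.16 and 12.19 in Q111 controls, 11.61, 11.73 and 11.69 with ZDON, and 12.18, 12.14 and 12.04 with Boc-DON. In Q7 it read 11.62, 11.69 and 11.54 with control, 11.26, 11.11 and 11.39 with ZDON, and 11.86 and 11.72 with Boc-DON. Its layers were those of H2bc11, with a difference of -0.49 (limma adjusted p = 0.00419). H2bc13, H2bc4, H2bc14 and H2bc9 differed by -0.48, -0.47, -0.46 and -0.45; the H2bc4 call was lost in 13 of 25 other settings, 10 of them without a single array, with adjusted p up to 0.266.

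Of 23 measured histone genes of the list, 0 were higher and 9 lower with ZDON than with Boc-DON, H1f2 and 8 H2B genes of the list, at a median of -0.30 beside -0.01 over all genes, and 21 of the 23 lay below 0. Over all genes 0.498% were higher and 0.203% lower, and the share below 0 is not given. Against control 2 of the list fell, H4c1 and H4c9, at -0.26 and -0.24, each lost in 18 of 25 other settings, with adjusted p up to 0.134 and 0.149. H4c1 was not a shared gene, as its 4 single differences did not have one sign. Outside the list, and named after their values were seen, the histone genes H4c6 (-0.32, limma adjusted p = 0.0194) and H2aj (-0.25, limma adjusted p = 0.0385) fell too. The coding sequences of H2B genes are nearly identical, so these probes may share signal and the genes are not independent. The H2bc11 and H2bc22 calls were lost without Q7 Boc-DON 1, at adjusted p = 0.0602 and 0.0768, and those of H2bc13, H2bc14 and H2bc9 also without Q7 Boc-DON 2, without Q7 ZDON 2 and with median scaling, at adjusted p up to 0.158. H2bc13 and H2bc9 lost theirs without Q111 ZDON 1 as well, and H2bc14 without Q111 ZDON 2. S phase and DNA replication genes, which are active when histone genes are, had 0 of 20 past the threshold and a median of -0.03. The part of the cell cycle in the histone difference was not tested.

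**Figure D5:**
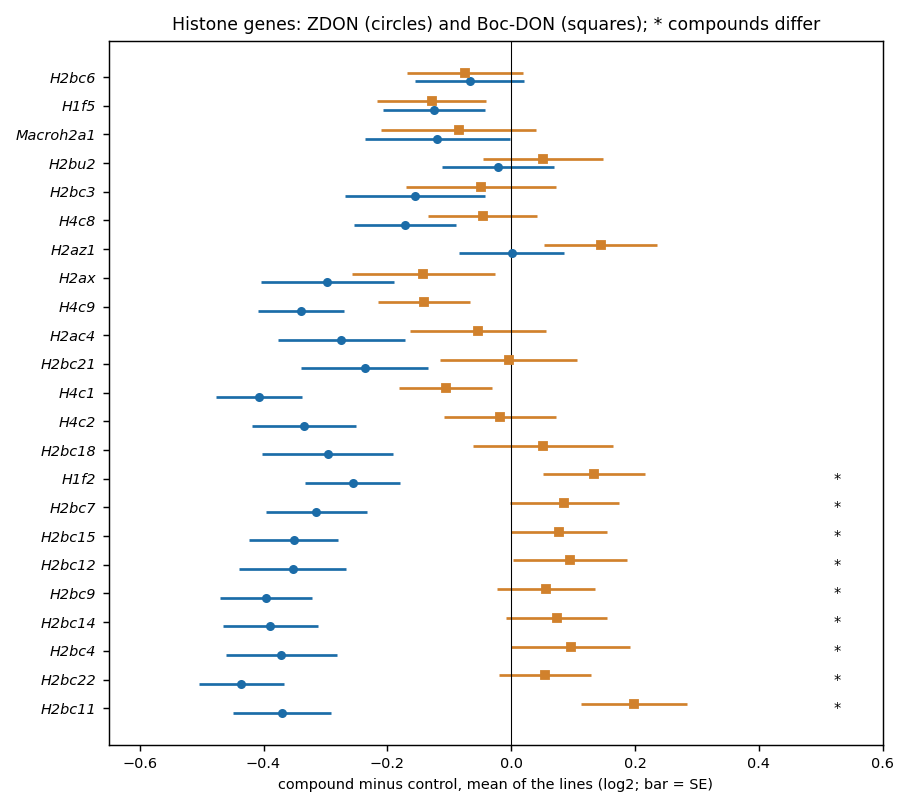
Log2 difference against control for ZDON (circles) and Boc-DON (squares) in the 23 measured histone genes of the list, means of both lines, with bars for 1 SE, a vertical line at 0 and a star where the compounds differed past the threshold. Every starred gene has ZDON below 0 and Boc-DON above it, as for H2bc11 at -0.37 and 0.20.

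4 H2B promoters are shown because these genes moved together and share a motif. In the 150 bases before the start, CCAAT on either strand was found in 8 of the 8 H2B promoters with an entry among the 9 H2B genes past the threshold, and in 6828 of 27025 promoter windows (25.3%). Histone genes that did not differ were not counted apart, so the motif is not shown to mark the genes that moved. CCAAT, or ATTGG where the match is on the other strand, stands in capitals, and each sequence is written along its gene from RefSeq in GRCm38.p6; a match is a description of the sequence only.
H2bc11, chr13:22043048-22043197, plus strand: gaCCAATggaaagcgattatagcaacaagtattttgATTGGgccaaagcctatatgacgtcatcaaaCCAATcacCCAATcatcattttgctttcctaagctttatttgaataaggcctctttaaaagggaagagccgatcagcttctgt
H2bc22, chr13:21787338-21787487, plus strand: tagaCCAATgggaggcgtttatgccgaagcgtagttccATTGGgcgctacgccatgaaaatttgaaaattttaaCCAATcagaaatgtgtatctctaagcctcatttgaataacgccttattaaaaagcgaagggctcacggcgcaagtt
H2bc9, chr13:23543445-23543594, minus strand: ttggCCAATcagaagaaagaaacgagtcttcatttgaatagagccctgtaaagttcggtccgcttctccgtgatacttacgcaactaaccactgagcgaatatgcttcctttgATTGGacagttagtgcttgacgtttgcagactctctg
H2bc14, chr13:21721894-21722043, plus strand: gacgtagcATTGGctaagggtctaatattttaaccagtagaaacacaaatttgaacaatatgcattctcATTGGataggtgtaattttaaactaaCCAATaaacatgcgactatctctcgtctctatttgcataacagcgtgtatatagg

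Eme1, a subunit of a DNA junction nuclease, and Pdhb, a subunit of pyruvate dehydrogenase, were the others of the 8 largest at -0.64 (limma adjusted p = 0.00515) and -0.49 (limma adjusted p = 0.047). The other Eme1 probes gave 0.03 and 0.05 and another Pdhb probe 0.07, and the Eme1 call was lost without Q7 Boc-DON 1 and with all 23 arrays in the fit (adjusted p up to 0.131). The Pdhb call was lost in 18 of 25 other settings, with adjusted p up to 0.307.

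Cystamine, a disulfide that is also used as a transglutaminase inhibitor, was given at 250 µM for 12 h, so its dose differs and only values are set beside those above, from a fit of all 23 arrays. Lce1f was at -0.22 in Q111 and -0.49 in Q7 with cystamine, Cyp26b1 at 0.03 and -0.05, and Slc46a3 at -0.55 and -0.56. Lrp11 was at -0.10 and -0.19 and Cxcl1 at -0.22 and -0.24. Hmox1 was at 1.44 and 1.06, Srxn1 at 1.26 and 1.30, Prl2c2 at 2.70 and 2.24, and Mmp10 at 0.68 and 0.87.

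2 further genes among the markers fell with the DON compounds, and the other measured markers of their lists did not pass the test. Of these others, the astrocyte marker Aldh1l1 was at -0.01, and the striatal neuron markers Drd2 and Ppp1r1b were at 0.12 and 0.03. Slc1a3, a glial glutamate transporter, was at -0.45 (limma adjusted p = 0.00295), with levels of 8.64 to 9.03 on chip 3 and 9.41 to 10.49 on chips 1 and 2, and its call was lost without the chip block (adjusted p = 0.713). Drd1, the dopamine D1 receptor, was at -0.42 (limma adjusted p = 0.0102) but at percentile 32.5 of array brightness, below the array median.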

How the data were processed

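Total RNA of 23 samples was measured on Illumina bead arrays. The authors deposited probe intensities, summarised with BeadStudio per the submitters' processing notes (version unstated there), and log2 values, which equalled quantile-normalized log2 intensities. 1 table column with no sample, of an array that the series text says failed quality control, was left out, as were 4759 probes without a symbol. Members and gene lists were chosen with earlier results of these data known, and a count over a list covers that list's members alone. Beside such counts stand the shares of all genes called: 0.914% higher and 1.7% lower pooled, 0.498% higher and 0.203% lower for ZDON against Boc-DON. No share of all genes below 0 is given.

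Intensities were background-corrected (normexp, offset 50) and quantile-normalized over 23 arrays in R 4.3.3 with limma 3.58.1. Probes above the array median on at least 2 arrays were kept (15049 of 24611, 12504 with a symbol). A gene was read from 1 of its probes, which gave 9849 genes. A limma model of 6 group means plus chip was fitted to the 17 arrays (9 residual degrees of freedom), with Benjamini-Hochberg adjustment over all genes at 0.05; it was tested on simulated data. All differences are on the log2 scale with 95% intervals. Named were the 12 largest shared changes each way, the 8 largest compound differences each way, up to 4 genes a list, Tgm2 and Htt. In the pairing check, arrays of one replicate number deviated together (median correlation 0.18, above 0 in 36 of 40 pairs) and others did not (-0.10, 26 of 80), and chips carry the numbers, so the chip was kept as a block. Replicate arrays correlated at 0.987 to 0.995 (16 pairs). Alternatives were a fit without the block, every probe kept, raw intensities, scaling by the median, the deposited log2 values, all 23 arrays in the fit, leaving out chip 3 or each array, and, added after the data were seen, normalization over the 17 arrays alone.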

Additional observations from a re-analysis of the deposited data

How the results depend on the processing

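Without the replicate block the pooled count fell from 257 to 93 genes, the shared count from 248 to 92, and the counts of the DON compounds to 12 in Q111 and 3 in Q7. ZDON then changed 51 genes, Boc-DON 96, and 18 differed between the compounds, 0 in Q111 alone and 0 in Q7 alone. With no filter on dim probes the counts were 164 pooled, 159 shared, 22 in Q111, 92 for ZDON, 155 for Boc-DON and 3 between compounds in Q111. Median scaling gave 22 in Q111, 49 for ZDON, 107 between compounds and 13 in Q111 alone, with 16 of 182 pooled genes and 11 of 294 Boc-DON genes higher. Without chip 3, Q111 had 19 and the compounds differed in 48 genes in Q7. Leaving out each array in turn gave 107 to 354 pooled, 103 to 332 shared, 6 to 113 in Q111, 3 to 17 in Q7, 43 to 261 for ZDON, 43 to 301 for Boc-DON, 12 to 108 between compounds, 0 to 14 in Q111 alone and 0 to 31 in Q7 alone; the line difference stayed at 0 in every setting. The causes of these moves, the fewer arrays among them, were not tested. Of 173 results on single genes that passed, 93 passed without the block, 128 with median scaling, 104 without Q7 Boc-DON 1, 104 without Q7 Boc-DON 2 and 173 from the deposited log2 values, with 0 reversed. The deposited values differ from the main ones only in the background correction. Signal over background limits dim genes most: Drd1 and the other Hap1 probes were below the array median.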
